A study of Mus musculus with 8 samples.

Results

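The 7 genes examined here encode proteins of the azurophil (primary) granule or of the cells that make it, and were taken from the RNA-seq tables by gene symbol (Mpo, Elane, Prtn3, Ctsg, Ms4a3, Cst7 and Srgn). All 7 were present in every library, among 29955 gene names in all, and all 7 passed the filter on low values in every comparison. The libraries came from bone marrow of WT and Ripk3-/- mice of a C57BL/6J background, sorted as LSK cells (lineage-negative, Sca1+, Kit+, the population with the stem and multipotent progenitor cells) or LK cells (lineage-negative, Sca1-, Kit+, the population with the committed myeloid progenitors). There were 8 libraries, 2 for each genotype in each sorted population, and the Ripk3-/- libraries are those labelled Ripk3-KO. The labels state that the mice were untreated, whereas the study describes collection after a course of fractionated X-irradiation in both genotypes, and this conflict was not resolved here. Ages, and whether a library came from 1 mouse or a pool, were not given in the sources used here, so the p-values measure the spread between these libraries, which may be in part technical.

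Azurophil granules are the first granules that a neutrophil precursor builds, at the promyelocyte stage, and the genes of their cargo are switched on in myeloid progenitors before any mature neutrophil is seen. Their cargo includes myeloperoxidase, which makes hypochlorous acid, and the serine proteases neutrophil elastase, proteinase 3 and cathepsin G, which are made as inactive precursors, trimmed by Ctsc and packed on the proteoglycan serglycin. Transcription of these genes is known to depend on PU.1 (an ETS factor), C/EBP, RUNX1 and MYB. A later set of granule proteins (lactoferrin, cathelicidin, lipocalin 2 and others) is made at the myelocyte and later stages, when azurophil transcription has already ceased.

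The RefSeq promoters of these genes (GRCm38.p6) are shown because 6 of the 7 genes rose together from LSK to LK cells. A start was found for each gene, and Srgn had a second start further downstream. The letters GGAAGT, the core that ETS factors such as PU.1 recognise, or their reverse complement ACTTCC, were found within the 250 bases before the first start of 7 of 7 genes, against 19.7% of 32817 mouse promoters. The second start of Srgn lacked them, so that 7 of 8 starts of these genes had a match. These letters were chosen after the sequences had been read, and a match is a description, not a binding site. In Elane and Prtn3 the match lay 83 and 93 bases before the start, upstream of a MYB-type match and of a TATA-type match, and the 2 genes are neighbors on chromosome 10. The stretches below run 5′ to 3′ on the strand of the gene up to the base before the start, and capitals mark GGAAGT or ACTTCC. They lie at chr10:79886192-79886311 (+) for Elane, chr10:79879547-79879666 (+) for Prtn3, chr2:150570295-150570414 (+) for Cst7 and chr19:11640852-11640971 (-) for Ms4a3.
Elane: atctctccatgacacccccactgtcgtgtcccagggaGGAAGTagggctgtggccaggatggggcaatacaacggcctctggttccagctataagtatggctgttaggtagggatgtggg
Prtn3: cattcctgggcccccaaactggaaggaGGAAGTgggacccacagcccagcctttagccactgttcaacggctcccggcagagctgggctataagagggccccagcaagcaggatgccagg
Cst7: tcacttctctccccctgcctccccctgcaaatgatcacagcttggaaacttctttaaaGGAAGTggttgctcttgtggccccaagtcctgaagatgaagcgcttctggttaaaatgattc
Ms4a3: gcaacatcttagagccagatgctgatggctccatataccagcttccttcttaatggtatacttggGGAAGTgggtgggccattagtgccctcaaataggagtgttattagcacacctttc

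In Mpo, Ctsg and Srgn the match lay further out, 222, 205 and 145 bases before the start, and in Srgn it was on the opposite strand. These stretches lie at chr11:87793534-87793783 (+) for Mpo, chr14:56102575-56102824 (-) for Ctsg and chr10:62527446-62527695 (-) for Srgn.
Mpo: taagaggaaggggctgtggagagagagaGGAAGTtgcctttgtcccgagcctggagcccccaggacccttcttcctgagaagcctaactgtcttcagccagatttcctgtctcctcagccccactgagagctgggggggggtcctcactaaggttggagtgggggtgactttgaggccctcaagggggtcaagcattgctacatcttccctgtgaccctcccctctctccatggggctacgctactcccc
Ctsg: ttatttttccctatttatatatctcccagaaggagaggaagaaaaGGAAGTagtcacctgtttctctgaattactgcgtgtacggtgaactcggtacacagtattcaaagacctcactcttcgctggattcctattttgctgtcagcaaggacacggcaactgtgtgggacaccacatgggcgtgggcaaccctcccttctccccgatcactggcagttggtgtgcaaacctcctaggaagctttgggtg
Srgn: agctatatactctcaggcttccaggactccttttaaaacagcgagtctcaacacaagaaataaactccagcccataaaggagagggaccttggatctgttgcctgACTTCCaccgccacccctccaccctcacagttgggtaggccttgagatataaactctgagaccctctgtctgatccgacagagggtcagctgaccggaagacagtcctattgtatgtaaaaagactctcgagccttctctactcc

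Matches to the other motifs searched on both strands were less uniform over the first starts. AACNG, the MYB core, was present in 6 of 7 genes (74.2% of all promoters), TTNNGNAA, a C/EBP-type pattern, in 2 of 7 (36.8%), TGTGGT, the RUNX core, in 2 of 7 (14%), and TATAAN in 4 of 7 (22.7%). The TATAAN matches lay 31 and 32 bases before the start in Elane and Prtn3. They lay further out in Srgn (98 bases) and in Ctsg (237 bases, opposite strand). The C/EBP-type match of Ms4a3, 59 bases before the start, overlapped its GGAAGT.

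Depth ran from 9782166 to 16280811 reads per library and was lower in LSK than in LK libraries, so that 3 reads correspond to a signal of 0.186 to 0.311. Ripk3 itself, the check of the labels, stood at signals of 162 and 168 for WT LSK against 3.38 and 1.08 for Ripk3-/- LSK. In the LK libraries it was 144 and 150 for WT against 16.2 and 10.6 for Ripk3-/-. Xist was between 108 and 413 in the 4 WT libraries and at most 1.27 in the 4 Ripk3-/- libraries, while the Y-linked Eif2s3y was 0 in WT and between 47.0 and 98.8 in Ripk3-/- libraries. Genotype and sex of the mice can therefore not be told apart in any comparison of WT with Ripk3-/-. Ly6a, which encodes Sca1, was between 141 and 237 in LSK and at most 4.12 in LK libraries, Kit was between 223 and 464 in all 8, and of the lineage genes Cd3e was at most 3.87 and Itgam, which encodes CD11b, was between 13.5 and 47.8 over the 8 libraries. Signal is the deposited value, a TMM-scaled CPM (count relative to the library total) that was not divided by gene length and was scaled separately in LSK and LK, so that LSK and LK are compared below on a common scale (CPM with 1 TMM scaling over all 8 libraries).

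The first question was how the azurophil genes differ between the stem cell enriched LSK and the myeloid LK population. Mpo, myeloperoxidase, Elane, neutrophil elastase, Prtn3, proteinase 3, Ctsg, cathepsin G, Ms4a3, a membrane protein of granulocyte-monocyte progenitors, and Cst7, the cathepsin inhibitor cystatin F, were 5.19-fold to 12.9-fold higher in LK than in LSK libraries, whereas Srgn, serglycin, differed by 1.33-fold. In the limma test across all genes with Benjamini-Hochberg adjustment, 6 of 7 genes were higher in WT LK than in WT LSK cells, where 14.8% of 15950 genes tested were called higher. In Ripk3-/- cells 7 of 7 were higher, where 12.2% of 15237 genes were called higher. Because these are bulk libraries, a larger share of cells with the transcript and more transcript per cell cannot be told apart.

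Mpo had a common-scale level of 4406 and 4953 in WT LSK and 4181 and 3088 in Ripk3-/- LSK, and of 62245 and 52919 in WT LK and 42390 and 57111 in Ripk3-/- LK. All 4 LK libraries were thus far above all 4 LSK libraries, and the lowest library of each population was a Ripk3-/- library. The log2 difference of LK to LSK was 3.62 ± 0.16 (SE, n = 2 against 2, limma adjusted p = 1.1e-12) in WT and 3.77 ± 0.16 in Ripk3-/- cells (limma adjusted p = 1.9e-13), and these placed Mpo 16th of 15950 and 14th of 15237 genes tested. Under quantile normalization, which gives the top-ranked gene of each library the same value, the Mpo difference was 1.62 in WT and 2.32 in Ripk3-/- cells, smaller than those of Ctsg (3.01 in each), so the place of Mpo depends on the scaling.

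Elane had a common-scale level of 1320 and 1536 in WT LSK, 1099 and 926 in Ripk3-/- LSK, 13147 and 12343 in WT LK, and 9127 and 11373 in Ripk3-/- LK. The lowest LK library was above the highest LSK library by a wide margin, and the Ripk3-/- libraries lay below the WT libraries in either population. The log2 difference of LK to LSK was 3.16 ± 0.15 in WT and 3.33 ± 0.15 in Ripk3-/- cells (SE).

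Prtn3, the gene next to Elane, had a common-scale level of 732 and 817 in WT LSK, 701 and 568 in Ripk3-/- LSK, 4416 and 3981 in WT LK, and 2541 and 3696 in Ripk3-/- LK. LK libraries were again all above LSK libraries, but the distance was smaller than for Elane. The log2 difference of LK to LSK was 2.44 ± 0.17 in WT and 2.28 ± 0.17 in Ripk3-/- cells (SE).

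Ctsg, the protease encoded on chromosome 14, had a common-scale level of 253 and 284 in WT LSK, 291 and 255 in Ripk3-/- LSK, 2893 and 2719 in WT LK, and 2462 and 2698 in Ripk3-/- LK. The genotypes overlapped in LSK and the populations did not. The log2 difference of LK to LSK was 3.38 ± 0.15 in WT and 3.24 ± 0.15 in Ripk3-/- cells (SE).

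Ms4a3 had a common-scale level of 154 and 161 in WT LSK, 122 and 165 in Ripk3-/- LSK, 1708 and 1437 in WT LK, and 1468 and 1516 in Ripk3-/- LK. Its mean level was 10.2-fold higher in LK, with overlap of the genotypes in both populations, and the log2 difference was 3.31 ± 0.17 in WT and 3.38 ± 0.17 in Ripk3-/- cells (SE).

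Cst7 had a common-scale level of 58.7 and 87.1 in WT LSK, 97.3 and 98.0 in Ripk3-/- LSK, 541 and 523 in WT LK, and 540 and 581 in Ripk3-/- LK. Both Ripk3-/- LSK libraries lay above both WT LSK libraries, and the populations did not overlap. The log2 difference of LK to LSK was 2.88 ± 0.20 in WT and 2.51 ± 0.20 in Ripk3-/- cells (SE).

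Srgn had a common-scale level of 1398 and 1480 in WT LSK, 1197 and 1422 in Ripk3-/- LSK, 1864 and 1848 in WT LK, and 1811 and 1783 in Ripk3-/- LK. Its populations did not overlap, but the log2 difference was only 0.37 ± 0.14 in WT (SE, limma adjusted p = 0.064) and 0.46 ± 0.14 in Ripk3-/- cells (SE, limma adjusted p = 0.024). The Ripk3-/- call was lost in 7 of the alternatives, without the KO LSK replicate 1, the KO LK replicate 1 or the KO LK replicate 2 (limma adjusted p = 0.20, 0.11 and 0.11), with no filter (0.095), with no trend (0.26), under plain CPM (log2 0.14, limma adjusted p = 0.47) and under quantile normalization (log2 0.12, limma adjusted p = 0.59). In WT Srgn passed with the members left out of the scaling (log2 0.39, limma adjusted p = 0.049) and with median centring (log2 0.49, limma adjusted p = 0.014), and was -0.056 under plain CPM. Serglycin is known to be made by many other blood cells as well.

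Taking the 4 LK against the 4 LSK libraries, 7 of 7 genes were higher in LK without overlap, as were 16.7% of 15757 genes, and each gene gave an exact two-sided permutation p of 0.029, the smallest that 4 against 4 allow. The ratio of mean levels was 12.9 for Mpo, 10.2 for Ms4a3, 9.95 for Ctsg, 9.42 for Elane, 6.41 for Cst7 and 5.19 for Prtn3. The median log2 difference of the 7 genes was 3.16 in WT and 3.24 in Ripk3-/- cells, against -0.077 and -0.0024 over all genes tested.

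**Figure D1:**
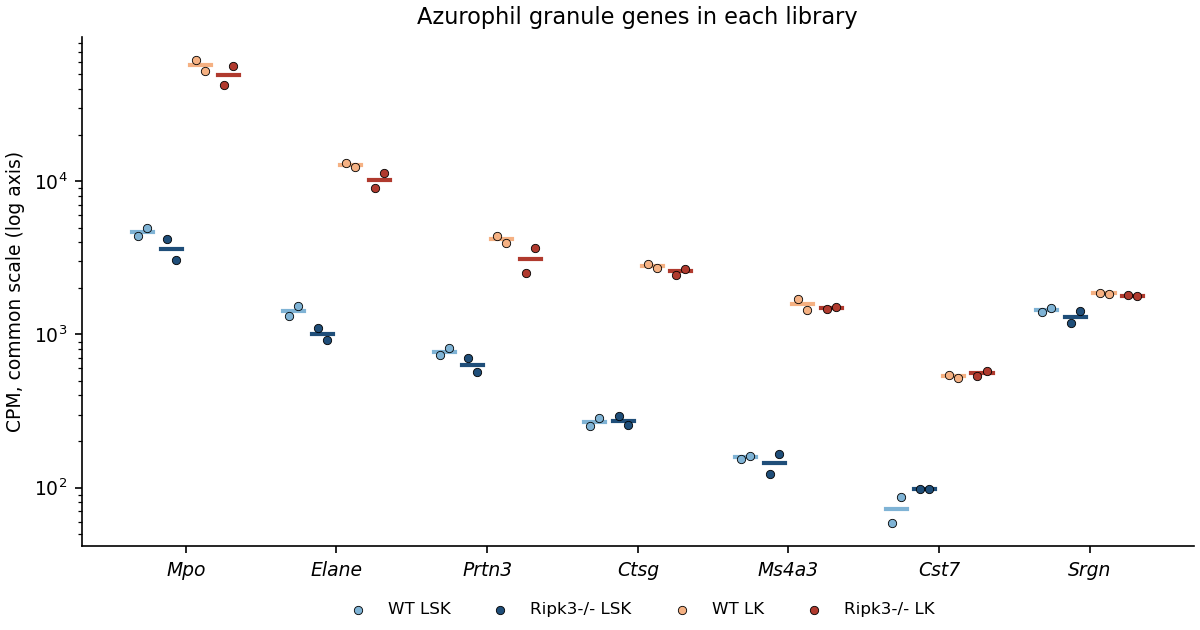
Level of each azurophil granule gene in the 8 libraries, in CPM on the common scale (log axis). Points are libraries, horizontal bars are means of 2 libraries, and colors are the 4 groups; for 6 genes the LK points lie several-fold above the LSK points, and for Srgn the ratio of means is 1.33.

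Per kilobase of annotated exon (GENCODE M21 on GRCm38, which need not be the annotation the authors counted on), the order of the genes also changed between the populations. In WT LK cells the mean levels per kilobase were 16817 for Mpo, 12952 for Elane, 2716 for Ctsg, 2424 for Prtn3, 845 for Srgn, 835 for Ms4a3 and 540 for Cst7. In WT LSK cells they were 1451 for Elane, 1367 for Mpo, 655 for Srgn, 447 for Prtn3, 260 for Ctsg, 83.6 for Ms4a3 and 73.9 for Cst7. Over the 4 LK libraries the ranges of Mpo and Elane, of Ctsg and Prtn3, and of Srgn and Ms4a3 overlapped, and over the 4 LSK libraries those of Elane and Mpo and of Ms4a3 and Cst7 overlapped, so that the order within these pairs is within the spread. Srgn stood above Prtn3 in LSK without overlap (545 to 674 against 328 to 472 per kilobase), and below Prtn3 in LK (812 to 849 against 1467 to 2549).

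Together the 7 genes took 0.976% and 1.04% of all reads in WT LSK, 0.853% and 0.750% in Ripk3-/- LSK, 7.15% and 6.71% in WT LK, and 5.73% and 6.80% in Ripk3-/- LK. The share was on average 5.69 percentage points higher in LK (exact two-sided permutation p = 0.029, the smallest possible). The exact binomial 95% interval, which covers counting error alone, was 7.14% to 7.16% for the WT LK replicate 1 and 0.745% to 0.755% for the Ripk3-/- LSK replicate 2, so the libraries differed by far more than counting error. Mpo alone held 5.13% and 4.69% of the reads in WT LK and 4.02% and 4.93% in Ripk3-/- LK, and was the gene with the most reads in all 4 LK libraries. With the reads of Mpo left out of numerator and denominator, the other 6 genes held 0.391% to 0.491% of the reads in LSK and 1.77% to 2.13% in LK.

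**Figure D2:**
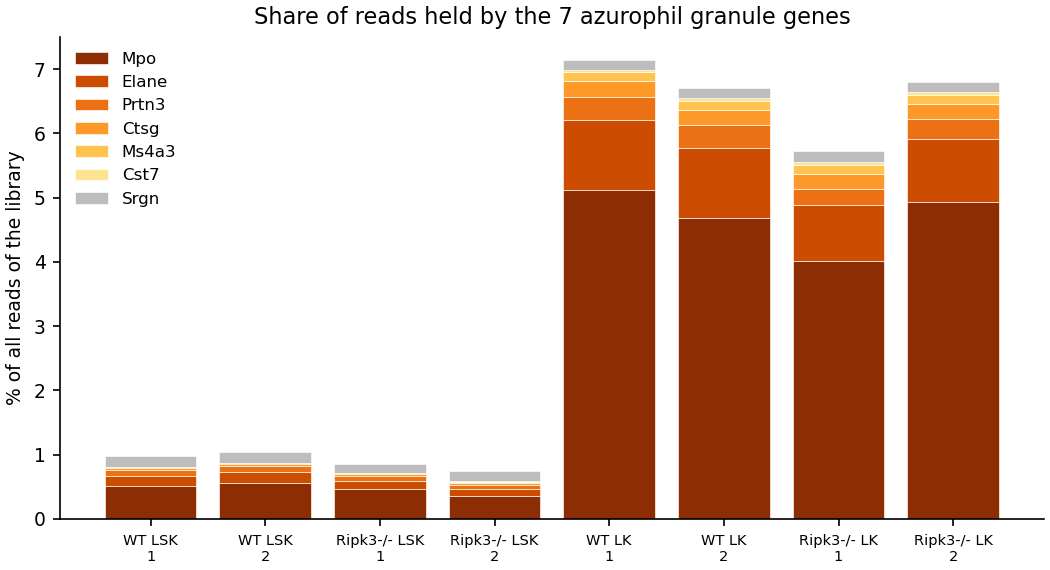
Share of all reads of a library (%) held by the 7 azurophil granule genes, 1 bar per library, split by gene. The bars reach 0.750% to 1.04% in LSK and 5.73% to 7.15% in LK, and Mpo is the largest piece of each bar.

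Summed markers of other cell types, on the common scale, also differed between LSK and LK without overlap. The 7 monocyte markers summed to 396 to 468 in LSK and 2715 to 2954 in LK, and the 7 erythroid markers to 1448 to 1650 in LSK and 1997 to 3321 in LK. In each genotype limma called 5 of 7 monocyte and 5 of 7 erythroid markers higher in LK. Of all genes 14.8% were called higher in WT and 12.2% in Ripk3-/- cells. The 7 mast cell and basophil markers summed to 224 to 266 in LSK and 721 to 928 in LK, and the 5 eosinophil markers to 76.2 to 120 in LSK and 157 to 234 in LK. Markers of stem cells (504 to 798 against 127 to 141 for 7 genes), megakaryocytes (438 to 487 against 263 to 311 for 6 genes) and lymphoid cells (663 to 1221 against 86.5 to 136 for 7 genes) were higher in LSK than in LK. Of 4 NK cell markers, Klrd1 was listed at 0 in every library and Nkg7 made up most of a sum of 529 to 664 in LSK and 1608 to 1911 in LK. Single genes did not all follow their sum. Klf4, a monocyte marker, was called lower in LK in both genotypes (log2 -2.48 in WT and -2.44 in Ripk3-/- cells). Prss34 (mast cell and basophil) was called lower in WT, and Car2, Hbb-b1 (erythroid) and Klrb1c (NK cell) in Ripk3-/- cells. Among megakaryocyte markers Itga2b was called higher in LK in both genotypes and Pf4 in Ripk3-/- cells. The part of these cell types in the difference of the azurophil genes was not tested.

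Of 24 azurophil companions (processing enzymes, lysosomal hydrolases, membrane proteins and the secretion machinery), 23 were tested, and 14 were higher in LK and 0 lower in WT (14.8% and 9.16% of all genes), while 13 were higher and 1 lower in Ripk3-/- cells (12.2% and 7.95% of all genes). With no trend in the prior variance 8 were called in each genotype. Their median log2 difference was 0.86 in WT and 0.69 in Ripk3-/- cells. In WT the largest were Slpi, a protease inhibitor (log2 2.48 ± 0.20), Prss57, the fourth neutrophil serine protease (2.31 ± 0.18), Lamp1, a lysosomal membrane protein (2.11 ± 0.29), and Arsb, a lysosomal sulfatase (2.10 ± 0.26), each with its SE. In Ripk3-/- cells they were Prss57 (2.22 ± 0.19), Galns, another sulfatase (1.90 ± 0.33), Slpi (1.78 ± 0.20) and Arsb (1.75 ± 0.26), and Lamp1 was lower in LK (-0.92 ± 0.29).

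Of 11 transcription regulators, not all of them specific to the azurophil program, 6 were higher in LK in WT and 6 in Ripk3-/- cells. Lower in either were 0 of the 11, where 14.8% and 12.2% of all genes were called higher. In Ripk3-/- cells 3 were called with no trend and 2 without the KO LK replicate 2. In WT the largest log2 differences were those of Gfi1, a repressor that acts in granulocyte differentiation (2.94 ± 0.43), Cebpd (2.42 ± 0.31), Irf8, a monocyte fate factor (2.22 ± 0.22), and Cebpe, which drives late granule genes (2.16 ± 0.44). In Ripk3-/- cells they were Cebpe (2.77 ± 0.43), Irf8 (2.47 ± 0.22), Cebpa (1.70 ± 0.51) and Cebpd (1.32 ± 0.31). The list of late granule genes also holds neutrophil genes whose products are not granule cargo, among them S100a8, S100a9, Padi4, Ltb4r1 and Cxcr2. Of the late granule genes, 6 of 17 tested were higher and 2 lower in WT (median log2 difference 0.20), where 9.16% of all genes were called lower, and 4 of 18 higher and 2 lower in Ripk3-/- cells (median -0.31), where 7.95% were called lower. Ltf and Camp, which encode lactoferrin and cathelicidin, were not called in either genotype.

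The genes whose common-scale log2 levels followed a member most closely over the 8 libraries, among 10693 genes, included proteins of the secretory pathway and other myeloid genes. For Mpo they were Copb2 (Pearson r = 0.998), a coat protein of Golgi vesicles, Sdf2l1 (0.997), an endoplasmic reticulum chaperone component, and P4hb (0.997), protein disulfide isomerase. For Elane they included Clec12a and Plac8 (0.996 and 0.995). For Prtn3 they were Ctsz, B4galnt1 and Gpi1 (0.998, 0.996 and 0.996), and for Ctsg Lta4h, Dstn and F13a1 (0.999, 0.998 and 0.997). For Ms4a3 they were Parp8, Ero1l and Plac8 (0.997 each), for Cst7 Eif3a, Anxa3 and Ptgr1 (0.999, 0.999 and 0.997), and for Srgn Usp1, Sec61b and H47 (0.995, 0.992 and 0.989). The libraries fall into the 2 populations, so a gene that differs between them by a steady amount scores high, and the coefficients are given as a description.

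The second question was whether loss of Ripk3 was accompanied by a change of the azurophil genes. In LK cells 0 of 7 genes passed the limma test, where 0.473% of 13949 genes were called, and in LSK cells 0 of 7 passed, where 2.16% of 16817 genes were called. At an unadjusted p under 0.05, 2 of 7 genes were reached in LK (Elane and Prtn3, against 6.56% of all genes) and 3 of 7 in LSK (Mpo, Elane and Cst7, against 17.9%). On the recovered reads edgeR's quasi-likelihood test also called 0 of 7 genes in LK and in LSK (0.373% and 1.24% of all genes), while DESeq2 called 0 in LK and 1, Elane, in LSK (1.21% and 3.69%). The log2 differences of Ripk3-/- to WT ran from -0.46 to 0.064 in LK and from -0.50 to 0.44 in LSK, with medians of -0.13 and -0.15 against 0.0093 and -0.0086 over all genes tested.

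Elane had a signal of 1504 and 1750 in WT LSK against 1240 and 1059 in Ripk3-/- LSK, and of 11533 and 10939 in WT LK against 8034 and 9926 in Ripk3-/- LK. Both Ripk3-/- libraries were below both WT libraries in each population. The log2 difference was -0.50 ± 0.14 in LSK (SE, limma adjusted p = 0.064, 95% interval -0.79 to -0.21) and -0.33 ± 0.15 in LK (SE, limma adjusted p = 0.69, 95% interval -0.64 to -0.027). In LSK it passed under 3 of the alternative settings, the DESeq2 test (adjusted p = 0.026), plain CPM (limma adjusted p = 0.013) and median-centred libraries (limma adjusted p = 0.031).

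Prtn3 had a signal of 834 and 931 in WT LSK against 791 and 650 in Ripk3-/- LSK, and of 3873 and 3528 in WT LK against 2237 and 3226 in Ripk3-/- LK. Its Ripk3-/- libraries also lay below its WT libraries in each population, with the lowest LK value in the Ripk3-/- LK replicate 1. The log2 difference was -0.30 ± 0.16 in LSK (SE, limma adjusted p = 0.34) and -0.46 ± 0.17 in LK (SE, limma adjusted p = 0.44, 95% interval -0.80 to -0.12), where it was -0.20 without the KO LK replicate 1 and -0.72 without the KO LK replicate 2.

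Mpo had a signal of 5020 and 5642 in WT LSK against 4719 and 3529 in Ripk3-/- LSK, and of 54602 and 46901 in WT LK against 37309 and 49843 in Ripk3-/- LK. The genotypes did not overlap in LSK and overlapped in LK. The log2 difference was -0.38 ± 0.15 in LSK (SE, limma adjusted p = 0.19) and -0.23 ± 0.16 in LK (SE, limma adjusted p = 0.88, 95% interval -0.57 to 0.11). Without the KO LK replicate 1 or 2 the LK difference was -0.022 or -0.44, and under quantile normalization the LSK difference was -0.71 (limma adjusted p = 0.0079). The LK difference under quantile normalization was 0 by construction, because Mpo was the top gene of each LK library.

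Cst7 went the other way, with a signal of 66.8 and 99.2 in WT LSK against 110 and 112 in Ripk3-/- LSK, and of 474.81 and 464 in WT LK against 474.84 and 507 in Ripk3-/- LK. Both Ripk3-/- libraries were above both WT libraries in LSK, and in LK 1 library of each genotype had nearly the same signal. The log2 difference was 0.44 ± 0.19 in LSK (SE, limma adjusted p = 0.24) and 0.064 ± 0.19 in LK (SE, limma adjusted p = 0.98).

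Ctsg had a signal of 288 and 323 in WT LSK against 329 and 292 in Ripk3-/- LSK, and of 2537 and 2410 in WT LK against 2167 and 2355 in Ripk3-/- LK, with log2 differences of 0.022 ± 0.14 and -0.13 ± 0.15 (SE). Ms4a3 differed by -0.15 ± 0.17 in LSK and -0.079 ± 0.17 in LK, and Srgn by -0.14 ± 0.14 and -0.055 ± 0.14 (SE). For these 3 genes the 95% intervals ran from -0.50 to 0.32 in LSK and from -0.44 to 0.27 in LK.

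Counted by libraries, Ripk3-/- lay below WT without overlap for 4 of 7 genes in LK (Elane, Prtn3, Ctsg and Srgn) and 3 of 7 in LSK (Mpo, Elane and Prtn3), where 19.9% and 23.2% of all genes did so, and above it for Cst7 in both, where 20.1% and 21.4% did so. For Cst7 in LK this rests on signals of 474.84 against 474.81, and on the common scale the genotypes overlapped there (541 and 523 in WT, 540 and 581 in Ripk3-/-). The difference of the genotype effect between LK and LSK was called for 0 of 7 genes, against 0.358% of 15901 genes, and 0 of 7 reached an unadjusted p under 0.05 (10.1% of all genes; edgeR and DESeq2 also called 0). Its log2 value ran from -0.38 for Cst7 to 0.17 for Elane. Several sums of markers of other cell types also did not overlap between genotypes. In LK the sum for WT against Ripk3-/- libraries was 2519 to 2913 against 1758 to 1847 for erythroid, 639 to 706 against 731 to 810 for mast cell and basophil, 139 to 154 against 176 to 205 for eosinophil and 76.7 to 79.0 against 93.3 to 120 for lymphoid markers. In LSK it was 755 to 848 against 1337 to 1379 for lymphoid, 574 to 712 against 876 to 913 for stem cell and 86.8 to 88.3 against 103 to 138 for eosinophil markers. A sum follows its highest genes. In LSK Flt3 and Dntt made up most of the lymphoid sum. There 4 of 6 lymphoid genes tested had a log2 difference below 0 (median -0.23), as did 2 of 7 stem cell and 0 of 3 eosinophil genes. In LK Car1 and Car2 made up most of the erythroid sum (6 of 7 below 0). Prg2 made up most of the eosinophil sum (1 of 4 below 0). There 2 of 7 mast cell and basophil and 2 of 4 lymphoid genes were below 0. Of all these markers Car2 was called lower in Ripk3-/- LK, and Gata1 was called lower and Flt3 higher in Ripk3-/- LSK. The part of these cell types in the values of the azurophil genes was not tested.

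**Figure D3:**
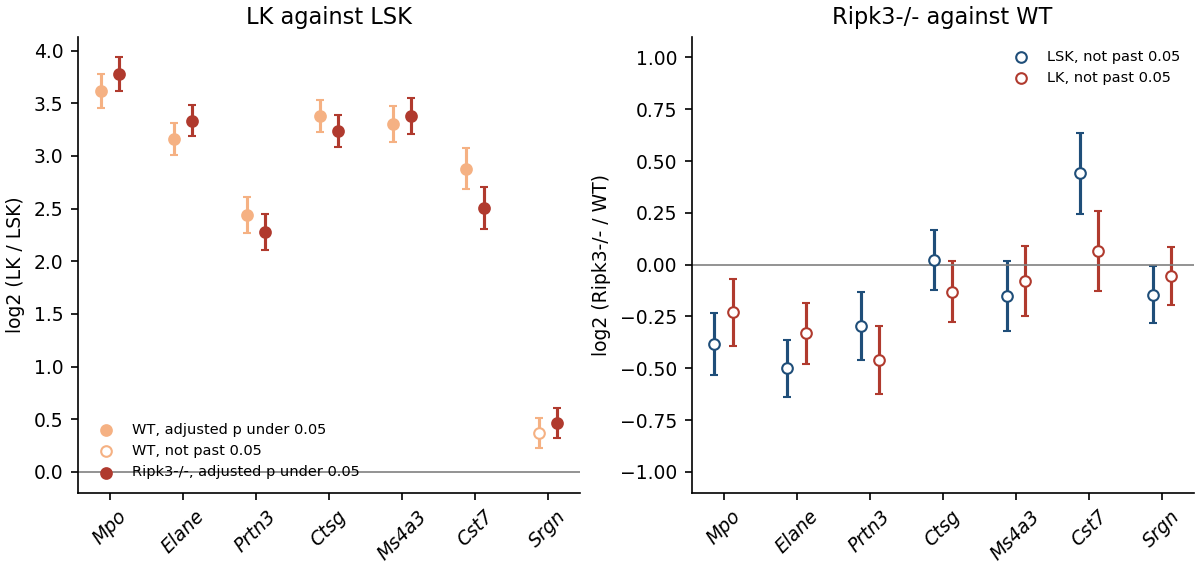
Log2 difference (± SE, n = 2 against 2) of LK against LSK (left) in both genotypes and of Ripk3-/- against WT (right) in both populations for the 7 genes; filled points passed an adjusted p of 0.05. On the left 6 genes lie between 2.28 and 3.77 and Srgn at 0.37 and 0.46, and on the right the values lie between -0.50 and 0.44 and all points are open.

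The azurophil genes were set against the late granule genes. Of 20 late granule genes 19 were matched, and of 18 tested 6 were higher and 0 lower in Ripk3-/- LK (median log2 difference 1.01, with 0.1% of all genes called higher), and 10 were higher and 0 lower in Ripk3-/- LSK (median 1.49, with 0.892% of all genes called higher). Among the called genes, the largest in LK were Ltf, lactoferrin (35.3 and 36.9 in WT against 218 and 228 in Ripk3-/-, log2 2.60 ± 0.23), Ngp, neutrophilic granule protein (2.12 ± 0.17), Camp (1.74 ± 0.22) and Lcn2, lipocalin 2 (1.23 ± 0.27). Among those called in LSK the largest were Cd177, a neutrophil surface protein (7.85 and 0.104 in WT against 39.9 and 35.6 in Ripk3-/-, log2 3.63 ± 0.64), Ltf (2.76 ± 0.23), Itgb2l (2.62 ± 0.66) and Retnlg (2.03 ± 0.42). Errors are SE. The summed signal of the 19 genes was 973 to 1078 in WT LSK against 2834 to 3210 in Ripk3-/- LSK, and 1692 to 1701 in WT LK against 2466 to 2628 in Ripk3-/- LK, while that of the 7 azurophil genes was 9479 to 10615 against 7456 to 8678 in LSK and 67154 to 76154 against 53107 to 68736 in LK. Among the called genes, S100a9 (in both populations) and S100a8 (in LSK) do not encode granule cargo. A sum follows its highest genes, and S100a8 was among the highest in LSK (231 and 273 in WT against 624 and 869 in Ripk3-/-). In WT LK the highest was Hp, which went the other way (662 and 615 against 439 and 553 in Ripk3-/-). The list of late granule genes was chosen with these results known, so its count is no independent evidence of its direction. Without WT LK replicate 1, KO LK replicate 1 or KO LK replicate 2, 3 genes were called in LK, as with no filter on low values, and with no trend in the prior variance 0 were called in LK and 5 in LSK.

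Of 23 companions tested, 0 were higher and 1 lower in Ripk3-/- LK (median log2 difference -0.0056, with 0.373% of all genes called lower) and 0 passed in LSK (median 0.19). The gene that fell in LK was Lamp1, with a signal of 559 and 268 for the WT libraries against 77.7 and 127 for the Ripk3-/- libraries (log2 -1.95 ± 0.29, SE, limma adjusted p = 0.0012), and 0 companions were called with no filter, with no trend, without the WT LK replicate 1 or without the KO LK replicate 1. Ctsc, the protease that activates the precursors, had a signal of 102 to 145 in LK and 128 to 162 in LSK over both genotypes. Of the 11 regulators 0 passed in LK and 2 were higher in Ripk3-/- LSK, Gfi1 (5.36 and 10.4 in WT against 34.4 and 26.9, log2 1.89 ± 0.43, SE, limma adjusted p = 0.024) and Myb (263 and 251 in WT against 381 and 480, log2 0.73 ± 0.17, SE, limma adjusted p = 0.022), where 0.892% of all genes were called higher. Of the regulators, 0 were called with no filter, with no trend, with the LSK libraries alone, or without the WT LSK replicate 1, the WT LSK replicate 2 or the KO LSK replicate 2, and 1 with median centring, by edgeR and without the KO LSK replicate 1. Cebpb had a signal of 53.6 in the WT LK replicate 1 and of 0.683 to 1.65 in the other 3 LK libraries.

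**Figure D4:**
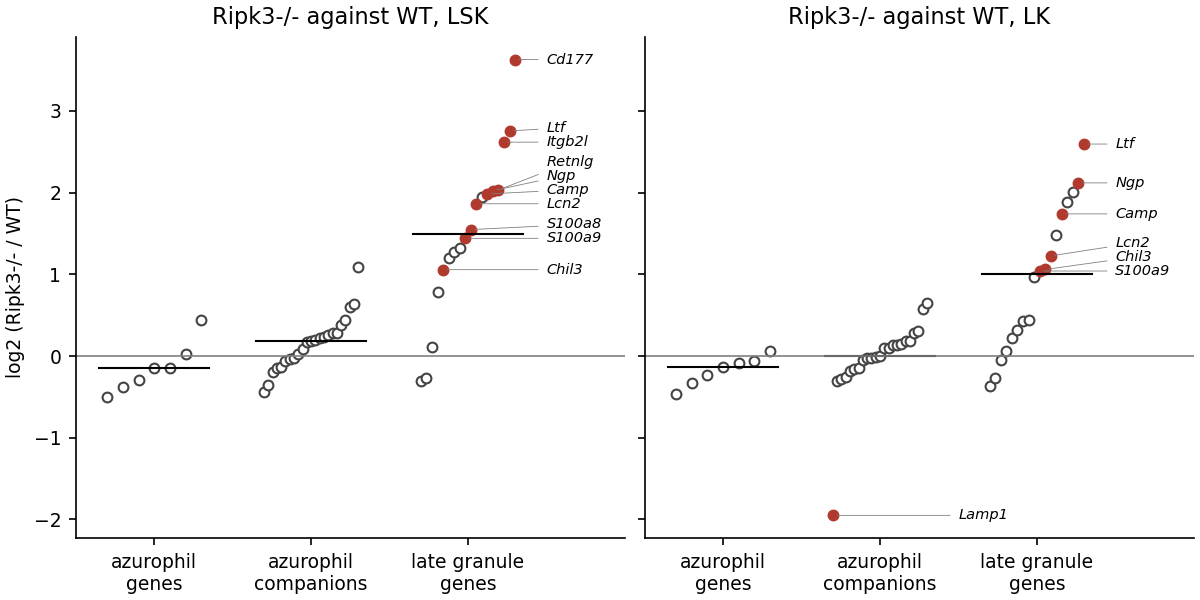
Log2 difference of Ripk3-/- to WT in LSK (left) and LK (right) for each tested gene of 3 lists; horizontal bars are list medians, and filled, named points passed an adjusted p of 0.05. The 7 azurophil genes stay between -0.50 and 0.44 with no filled point, whereas 10 late granule genes in LSK and 6 in LK are filled above 0.

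The proportions of the azurophil transcripts within a library do not depend on its scaling. Of 21 ratios between pairs of the 7 genes, 13 did not overlap between LK and LSK, against 88.3% of the ratios of a member to another expressed gene. These were 4594 genes with a mean of at least 50, and the ratios share genes and libraries, so the counts are a description. The 13 include every ratio with Srgn, the member whose level differed least between LK and LSK. Mpo to Prtn3 was 5.43 to 6.06 in LSK and 13.3 to 16.7 in LK, and Elane to Prtn3, the neighboring genes, was 1.57 to 1.88 in LSK and 2.98 to 3.59 in LK. Ctsg to Ms4a3 stayed between 1.54 and 2.38 in all 8 libraries.

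Between genotypes, 13 of 21 ratios did not overlap in LK and 12 in LSK, where 50% and 56.1% of the ratios to other genes did not, and 9 lay on the same side in both populations, against 25.4%. The 9 were every ratio with Cst7, which was relatively higher in Ripk3-/- libraries, and Elane to Ctsg, Elane to Srgn and Prtn3 to Ctsg. Most of the 9 thus share 1 gene. Each gave an exact permutation p of 0.056 within populations, the smallest possible, and 0.13 after Benjamini-Hochberg adjustment over 21 ratios. Elane to Ctsg was 5.23 and 5.41 in WT LSK against 3.77 and 3.63 in Ripk3-/- LSK, and 4.55 and 4.54 in WT LK against 3.71 and 4.21 in Ripk3-/- LK. Prtn3 to Ctsg was 2.90 and 2.88 in WT LSK against 2.40 and 2.23 in Ripk3-/- LSK, and 1.53 and 1.46 in WT LK against 1.03 and 1.37 in Ripk3-/- LK. The 2 proteases of the chromosome 10 pair were thus lower relative to Ctsg in all 4 Ripk3-/- libraries. These 2 ratios were singled out after their values were seen.

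**Figure D5:**
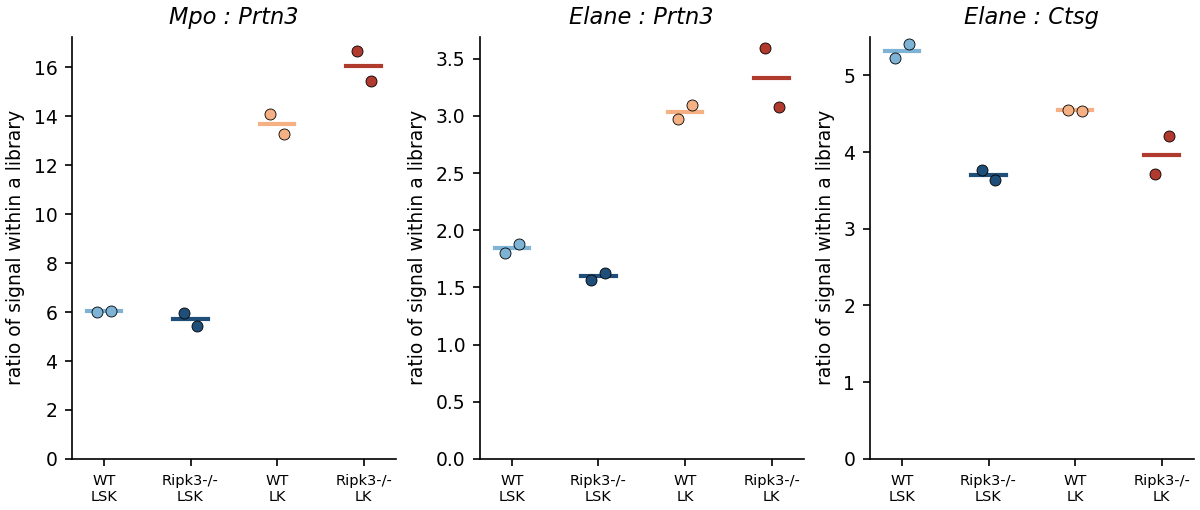
Ratio of signal within a library for 3 pairs of azurophil genes; points are libraries, bars are means of 2. Mpo : Prtn3 and Elane : Prtn3 are higher in LK than in LSK, and Elane : Ctsg is lower in each Ripk3-/- group than in the WT group of its population.

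Prtn3 (chr10:79874476-79883174) and Elane (chr10:79886247-79888215) lie 3.07 kb apart on the plus strand. Of the 7 other genes of this serine protease locus 6 were found in the tables and 4 were tested, and 0 differed between genotypes in LK or LSK, Prss57 having a signal of 96.9 and 109 in WT LSK against 122 and 115 in Ripk3-/- LSK. Prtn3 overlaps Plppr3 on the opposite strand and Mpo (chr11:87793581-87804413) overlaps Gm11505, an antisense gene that shares 209 bases with it, and whether the counting used strand was not given in the sources used here. The remaining genes lie at chr19:11629496-11640851 (Ms4a3, minus strand), chr2:150570415-150578944 (Cst7, plus strand) and chr10:62493833-62527451 (Srgn, minus strand), all on GRCm38, while the authors' build was mm9. By BLAST of the transcripts, Gm11505 matched Mpo at 100% identity over these 209 bases, on the opposite strand. Apart from it, no other gene held a copy of 90% identity over 200 bases for any of the 7. Shorter or less similar matches were found to transcripts of 425 other genes for Srgn, 6 for Ms4a3 and 1 for Prtn3.

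Ctsg (chr14:56099881-56102574, GRCm38) lies 311 kb from Ripk3 (chr14:55784995-55788865) on the same chromosome, with 12 protein-coding genes between, and belongs to the chymase and granzyme locus. Ctsg itself differed by 0.022 and -0.13 on the log2 scale between genotypes, as given above. Of the 14 other genes of the locus 7 were under a signal of 1 in every library, 3 were tested in LK and 4 in LSK, and 1 was lower in Ripk3-/- LSK. This was Cma1, mast cell chymase, with a signal of 10.4 and 10.9 in WT LSK against 0.0804 and 0 in Ripk3-/- LSK (limma adjusted p = 0.0026, where 1.27% of all genes were called lower), and it was not called in LK (limma adjusted p = 0.95). It was named after its value was seen. Mcpt8, a basophil protease of the same locus, had a signal of 55.8 to 85.5 in all 8 libraries.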

How the data were processed

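Bone marrow LSK and LK cells of WT and Ripk3-/- mice were profiled by stranded mRNA sequencing (8 libraries, 4 groups of 2, grouped by the labels). The submitters' processing notes name TopHat and mm9, and the counter is not given in the sources used here. The deposited values, headed FPKM by the authors, are a signal that equals CPM with TMM factors computed separately within LSK and within LK: recomputing it differed by at most 4e-09 in relative terms, and all values were whole multiples of a read within a tolerance of 0.01. Whole reads were therefore recovered. The planned test for values without counts was kept.

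Genotypes were compared on the deposited signal and LK with LSK on a common scale, with limma 3.58.1 (R 4.3.3; 4 group means, trend, two-sided) on log2(value + 1), for genes whose mean in the compared libraries reached 1, with Benjamini-Hochberg adjustment over all genes tested and a threshold of 0.05. Fold changes are on that log2 scale, which understates changes of low genes. Alternatives included edgeR 4.0.16 and DESeq2 1.42.0 on recovered reads, other scalings and filters, and leaving out each library. Single values were compared by exact permutation tests (scipy 1.17.1). Scripts were tested on simulated data. All 7 genes were named, with at most 4 called genes per list and comparison by size, the 3 most alike genes per member (1 is not reported here), and genes of the neighboring loci. The members and lists were chosen with earlier results of these data known. Ly6g and Hba-a1 were not matched, and Prss57, Spi1 and Chil3 were matched by older names. Precision is set by 2 libraries per group.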

Additional observations from a re-analysis of the deposited data

Results flagged for a closer look

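None of the 7 azurophil genes differed between LK and LSK in the effect of genotype, but 3 genes of the lists set beside them did, by the limma test of that difference. The LK minus LSK difference of the genotype effect was -3.04 ± 0.41 on the log2 scale for Lamp1 (SE, limma adjusted p = 0.0010), whose signal was 151 and 86.9 in WT LSK, 259 and 232 in Ripk3-/- LSK, 559 and 268 in WT LK and 77.7 and 127 in Ripk3-/- LK. For Gfi1 it was -2.92 ± 0.61 (SE, limma adjusted p = 0.032), with 5.36 and 10.4 in WT against 34.4 and 26.9 in Ripk3-/- LSK, and 70.5 and 35.9 in WT against 16.3 and 35.5 in Ripk3-/- LK. For S100a8, a calcium-binding protein of neutrophils, it was -1.23 ± 0.24 (SE, limma adjusted p = 0.022), with 231 and 273 against 624 and 869 in LSK and 433 and 446 against 566 and 528 in LK. These calls depended on the settings. With no filter on low values and with no trend in the prior variance 0 of the 3 remained called. The test by edgeR did not call a late granule gene or a regulator. The late granule call was lost without the KO LSK replicate 2 or any 1 of the LK libraries, and the regulator call with a pseudocount of 0.1 or 5 and without any 1 library of the 4 groups except the WT LK replicate 2 and the KO LK replicate 2.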

How the results depend on the processing

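In LSK, 1 of the 7 genes passed for genotype under quantile normalization (Mpo) and 1 (Elane) under plain CPM, median centring and the DESeq2 test, against 0 in the reported test. Genotype differences near 0 changed sign, on the log2 scale. In LK this held for Ctsg, Ms4a3 and Srgn under quantile normalization (0.050, 0.085 and 0.086) and Ms4a3 and Srgn under plain CPM (0.013 and 0.037). In LSK it held for Ctsg with DESeq2 size factors (-0.016), median centring (-0.089) and the DESeq2 test (-0.013). For LK minus LSK it held for Ctsg under quantile normalization (0.0032). Leaving out 1 library gave -0.20 to 0.037 for Ms4a3 in LK, -0.065 to 0.11 for Ctsg and -0.38 to 0.075 for Ms4a3 in LSK, and for LK minus LSK -0.058 to 0.36 for Mpo, -0.43 to 0.10 for Prtn3, -0.15 to 0.30 for Ms4a3 and -0.044 to 0.22 for Srgn. The difference in read share was 5.51 to 5.98 points, with 7 libraries too few to pass the exact test. The LK to LSK difference of Srgn was -0.056 in WT under plain CPM, which moved the median of all genes to -0.45 in WT and -0.28 in Ripk3-/- cells. The cause of these changes was not tested. No member was called for genotype without any 1 library, and 6 in WT and 6 to 7 in Ripk3-/- cells were called for LK against LSK.

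Calls over all genes varied more: 66 in LK for genotype (3 with no trend, 9 with no filter, 36 under quantile normalization, 125 with LK libraries alone, 169 by DESeq2, 13 to 101 without 1 library), 363 in LSK (120 with no trend, 198 with no filter, 195 with LSK libraries alone, 209 by edgeR, 620 by DESeq2, 99 to 262 without 1 library) and 57 for the difference (2 with no trend, 3 with no filter, 154 by DESeq2, 17 to 90 without 1 library). For LK against LSK there were 3814 in WT (1918 under quantile normalization, 1998 with no trend, 1502 to 4116 without 1 library) and 3072 in Ripk3-/- cells (1494 with no trend, 1489 to 3163 without 1 library). The values showed no clear pairing of libraries by replicate number (correlations of deviations -0.145 to 0.051). This cannot settle whether LSK and LK libraries came from the same mice, and the exact permutation tests treat all libraries as independent. With the replicate block the member counts were 0, 0, 0, 6 and 7 as before, over 64, 317, 53, 3598 and 2940 genes called, and crossing the Ripk3-/- LK numbers, chosen after seeing the data, gave 7 members and 3196 genes.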
